A study of Mus musculus with 4 samples.

Results

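The genes of the constitutive proteasome and its regulators were compared between myeloid-derived suppressor cells (MDSCs) of lal-/- and lal+/+ mice. A gene belonged to the set when its symbol began with Psma, Psmb, Psmc, Psmd, Psme, Psmf or Psmg followed by a digit, the interferon-inducible catalytic subunits Psmb8, Psmb9 and Psmb10 being left out, or when it was Pomp or Adrm1. This rule found 48 of the 19938 genes measured, read by 54 of the 21789 probe sets that name 1 gene. No such probe set named Adrm1, which was not analysed here. By their known places, 16 genes encode subunits of the 20S core, 9 of the base and 8 of the lid of the regulatory cap. The set also holds 8 factors that assist assembly, 5 activators or inhibitors of the core, and Psmc3ip and Psme3ip1, which the rule takes by name but which encode no subunit.

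The proteasome is the protease complex that degrades most proteins tagged with ubiquitin in the cytosol and nucleus. Its barrel-shaped core is built of alpha rings, which gate the entrance, and beta rings, which carry the cutting sites inside. The cap recognizes the ubiquitin tag, removes it, and unfolds the substrate with a ring of ATPases. In cells of the immune system an alternative core with Psmb8, Psmb9 and Psmb10 in place of the constitutive catalytic subunits is common, and its peptides feed antigen presentation.

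4 Affymetrix Mouse Gene 1.0 ST arrays were hybridized, 2 with RNA of lal-/- cells and 2 with RNA of lal+/+ cells. All mice were 5 months old and had been crossed back to FVB/N for 10 generations, and the lal-/- mice lack lysosomal acid lipase (LAL), the enzyme that hydrolyzes cholesteryl esters and triglycerides in lysosomes. The labels describe the cells as bone marrow cells positive for CD11b and Gr-1, and the methods describe magnetic selection with an antibody to Ly6G. How many mice each array represents is not stated, so the p-values cover only array-to-array spread, possibly technical.

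Values are log2 levels after quantile normalization, a difference is lal-/- minus lal+/+, and genes are termed called where the adjusted p was under 0.05 and the change at least 2-fold. Lipa, the gene that encodes LAL, read 7.37 and 7.49 in lal-/- cells, against 9.50 and 9.05 in lal+/+ cells, a difference of -1.85 (standard error 0.190, adjusted p = 0.00577). The antigens of the selection were present in both genotypes and rose in lal-/- cells, Ly6g by 2.88 and Itgam, which encodes CD11b, by 1.19. Other cell types moved with genotype. The linear signal summed over the 9 B cell markers measured was 703 to 717 in lal-/- cells and 7542 to 8442 in lal+/+ cells, and all 9 were called lower. Of 12 monocyte and macrophage markers 9 were called lower, with sums of 1960 to 1995 in lal-/- cells and 7793 to 8496 in lal+/+ cells. Of 7 primary granule genes of early neutrophil precursors 6 were called higher, with sums of 3527 to 3623 against 487 to 516. Of 14 mitosis genes 13 were called higher, with sums of 7836 to 8098 against 2398 to 2629. Of 8 T and NK cell markers 1 was called higher and 3 lower, and of 8 plasma cell markers 0 higher and 3 lower. Of 8 mature neutrophil genes 2 were called higher and 2 lower, and of 7 erythroid markers 0 were called. At an adjusted p under 0.05 and any fold, 14 mitosis genes, 7 primary granule genes and 2 T and NK cell markers were higher. At any fold 10 monocyte and macrophage markers and 2 erythroid markers were lower. The part of these cell types in the results below was not tested, and in bulk RNA fewer cells of a type and less RNA per cell cannot be told apart.

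Of the 48 proteasome genes 28 rose in lal-/- MDSCs and 20 did not pass the test. 46 of the 48 genes had a positive difference, with a median of 0.65 against 0.08 over all genes tested. The 28 genes that rose had an adjusted p under 0.05 whatever their fold, and make up 58.3% of the set against 15.3% of all genes. 0 fell at any fold, against 6.81%. Of those that rose, 9 also reached 2-fold, namely Psmd13, Psmb3, Psmd10, Psmd5, Psmd8, Psmd9, Psmd4, Psmb1 and Psmg3. This is 18.8% of the set, against 7.43% of all genes. 0 members were called lower, against 3.13% of all genes, and 0 were lower at an unadjusted p under 0.05 in limma. In 43 genes both lal-/- arrays lay above both lal+/+ arrays, and in 2 both lay below, against 41.6% and 24.1% of all genes. Without lal-/- replicate 1 or replicate 2 fewer genes were called, both in the set and among all genes. The median difference of the members was 0.54 to 0.76 with each array left out in turn. A linear model without moderated variances called 0 of the 48 genes, 27 being higher at an unadjusted p under 0.05, and 0 of all genes tested.

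**Figure D1:**
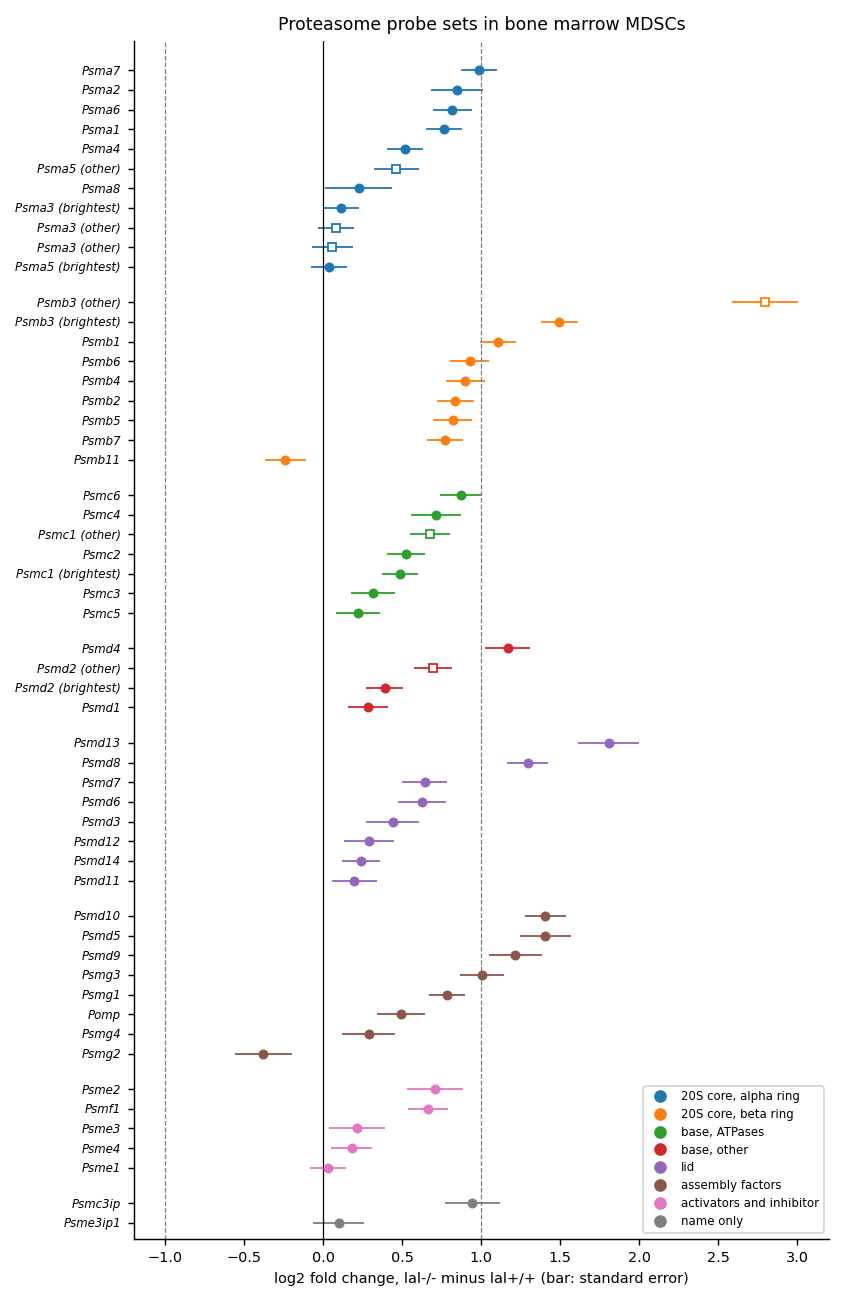
Log2 difference between lal-/- and lal+/+ cells (horizontal axis, bars are standard errors of the limma fit) for each of the 54 probe sets, grouped and coloured by place in the complex, with open squares for the dimmer probe sets of a gene and dashed lines at 2-fold. Most points lie between 0 and 1, the 9 called genes lie beyond 1, and Psmb11 and Psmg2 lie below 0.

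Much of the set is brightly read, and bright probe sets differed between the genotypes more often. Among the 1851 genes with a mean level of 9 or more, 17.6% were called higher at 2-fold, and 5 of the 31 proteasome genes at that level were, or 16.1%. Lower calls numbered 0 of these 31, against 6.32% at 2-fold and 14.8% at any fold. At this level the share of 2-fold calls was thus near its background. The other 4 calls, Psmd13, Psmd5, Psmd9 and Psmg3, were among the 17 members with a mean level under 9, or 23.5%, against 6.39% of all genes under 9, and 0 of these 17 were called lower, against 2.81%. The genes under 9 include all those below the median level, where few members lie, so 6.39% is a low background. At or above the median level 9 of 46 members were called higher, or 19.6%, against 13.9% of all genes there. Without the fold threshold 19 of the 31 brighter genes rose, or 61.3%, against 36.8% of all genes at that level. The median difference at that level was 0.71 for the proteasome genes and 0.28 for all genes.

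The count of 2-fold calls depended on how the arrays were put on a common scale. When the arrays were shifted to a common median, 29 of the 48 genes were called higher (13.1% of all genes), and with the values as deposited 23 were (10.1% of all genes). 0 were lower in either, against 2.3% of all genes with a common median and 3.13% as deposited. Bright genes were called far more often under these scalings. Of the 1851 genes with a mean level of 9 or more, 765 were called higher with a common median and 611 as deposited. Of the 31 members at that level 21 and 17 were. The median of all genes was 0.08 after quantile normalization, 0.12 with a common median and -0.05 as deposited. Measured from these, the median of the proteasome genes lay 0.57 higher after quantile normalization and 1.03 higher under both other scalings. Against genes with a mean level of 9 or more, the members at that level lay 0.43 higher after quantile normalization and 0.39 higher under both others.

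**Figure D2:**
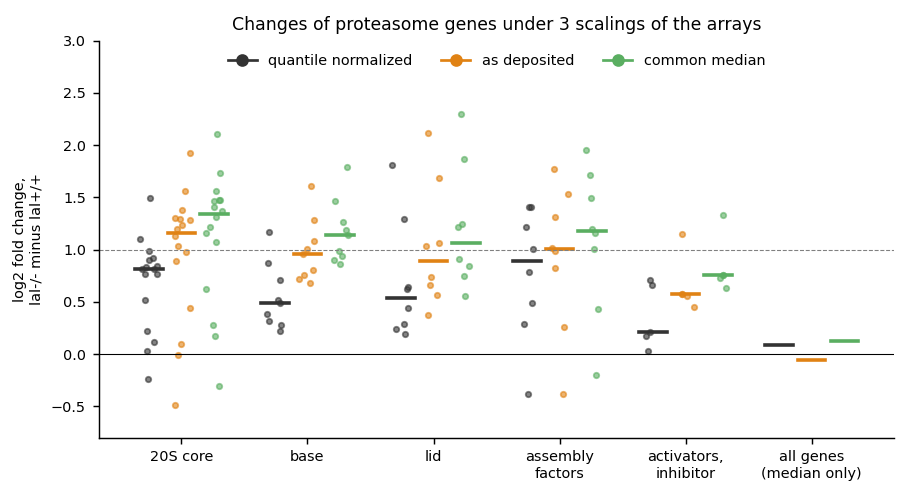
Log2 difference, lal-/- minus lal+/+, of each gene (points) by place in the complex, after quantile normalization, with the values as deposited and with a common median for all arrays. Horizontal lines are medians, with the median of all genes at the right, and the dashed line marks 2-fold. In each of the 5 groups the quantile normalized median is the lowest of the 3.

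The upstream regions of these genes are shown because the set moved largely in one direction. RefSeq windows (assembly GRCm38.p6) of 300 bases, most of them upstream of a gene's start, were at hand for 40 of the 48 genes. They were searched on both strands for TGACNNNGC, the core of the antioxidant response element read by NF-E2-related factors such as the product of Nfe2l1, for CCAAT and for the GC box GGGCGG. TGACNNNGC occurred in the windows of 15% of the member genes and of 14% of all 27025 genes with a window, and CCAAT in 37.5% against 41.1%. GGGCGG occurred in 60% of the member genes against 38.2% of all genes. All genes here include silent ones, and the share among expressed genes alone was not taken. Of the 8 called genes with a window, 1 held TGACNNNGC, 3 CCAAT and 4 GGGCGG, and of the 32 other members 5, 12 and 20 did. A match describes letters and not a bound site. The windows of the 3 genes with the largest increases at the probe sets that stand for them and of Psme1, which had the smallest difference among the members with a window that were read above the level of silent genes, are given 5′ to 3′ on the gene's strand, with matches in capitals (ATTGG is CCAAT on the other strand).
Psmd13, chr7:140882144-140882443, plus strand: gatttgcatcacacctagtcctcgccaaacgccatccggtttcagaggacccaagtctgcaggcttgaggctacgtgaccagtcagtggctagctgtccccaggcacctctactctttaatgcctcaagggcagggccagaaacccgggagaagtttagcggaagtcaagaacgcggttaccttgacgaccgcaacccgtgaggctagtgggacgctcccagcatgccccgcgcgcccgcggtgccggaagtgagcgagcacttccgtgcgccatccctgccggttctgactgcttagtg
Psmb3, chr11:97703184-97703483, plus strand: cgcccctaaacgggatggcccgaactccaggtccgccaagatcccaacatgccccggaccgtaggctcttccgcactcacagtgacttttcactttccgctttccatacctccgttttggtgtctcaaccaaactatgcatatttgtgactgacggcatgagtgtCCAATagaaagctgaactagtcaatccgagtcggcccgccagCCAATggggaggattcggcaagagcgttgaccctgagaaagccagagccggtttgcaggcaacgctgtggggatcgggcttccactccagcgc
Psmd10, chrX:140956662-140956961, minus strand: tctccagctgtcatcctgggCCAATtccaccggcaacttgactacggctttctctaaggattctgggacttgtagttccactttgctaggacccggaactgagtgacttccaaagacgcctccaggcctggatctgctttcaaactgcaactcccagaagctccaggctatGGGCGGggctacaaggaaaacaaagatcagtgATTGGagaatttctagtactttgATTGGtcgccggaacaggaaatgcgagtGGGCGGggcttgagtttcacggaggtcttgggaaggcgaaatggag
Psme1, chr14:55578244-55578543, plus strand: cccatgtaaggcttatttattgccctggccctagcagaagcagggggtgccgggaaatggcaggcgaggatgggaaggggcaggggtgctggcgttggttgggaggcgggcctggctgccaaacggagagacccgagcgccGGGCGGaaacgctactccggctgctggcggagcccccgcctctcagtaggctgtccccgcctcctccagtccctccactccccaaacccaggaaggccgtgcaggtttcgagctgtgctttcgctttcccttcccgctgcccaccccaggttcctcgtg
The Psmd13 window held none of the 3 motifs, that of Psmb3 held 2 CCAAT, that of Psmd10 held 3 CCAAT and 2 GGGCGG, and that of Psme1 held 1 GGGCGG. None of these matches overlapped.

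Subunits of the alpha ring rose moderately and did not reach 2-fold. 5 of the 8 genes rose at an adjusted p under 0.05, or 62.5% against 15.3% of all genes and 36.8% of those at a level of 9 or more. 0 were called at 2-fold, against 7.43% of all genes, and the median difference was 0.64. Psma7 read 12.22 and 12.18 in lal-/- cells and 11.17 and 11.25 in lal+/+ cells, a difference of 0.98 (standard error 0.117, adjusted p = 0.00777) that lay just under the threshold. Psma2 read 10.97 and 10.84 in lal-/- cells and 10.23 and 9.89 in lal+/+ cells, a difference of 0.84 (adjusted p = 0.0263). Psma6 read 12.46 and 12.42 in lal-/- cells and 11.69 and 11.56 in lal+/+ cells, a difference of 0.82 (adjusted p = 0.0132). In all 3 the arrays of the genotypes did not overlap. Psma1 and Psma4 rose by 0.77 and 0.52. The call of Psma2 was gained, with a difference of 1.01, when lal+/+ replicate 1 was left out.

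The remaining alpha ring genes did not pass the test. Psma3 was read by 3 probe sets. The brightest gave 12.25 and 12.24 in lal-/- cells and 12.10 and 12.16 in lal+/+ cells, a difference of 0.11, and the others gave differences of 0.08 and 0.06, so the 3 readings were alike and none passed. Of the others, the first read 12.19 and 12.20 in lal-/- cells and 12.10 and 12.13 in lal+/+ cells. The second read 12.17 and 12.04 in lal-/- cells and 11.97 and 12.12 in lal+/+ cells, where the genotypes overlapped. Psma5 was read by 2 probe sets that were less alike. The brighter gave 10.83 and 10.87 in lal-/- cells and 10.82 and 10.82 in lal+/+ cells, a difference of 0.03. The dimmer gave 9.60 and 9.66 in lal-/- cells and 9.29 and 9.04 in lal+/+ cells, a difference of 0.46 (adjusted p = 0.0848). The exons or gene copies that each probe set reads are not stated in the sources. Psma8, the testis form that replaces Psma7 in germ cells, read 5.61 and 6.06 in lal-/- cells and 5.77 and 5.46 in lal+/+ cells, with overlapping arrays. Its mean lay in the range of silent genes, taken as values below the 95th percentile over 1035 olfactory receptor probe sets (6.29 in lal-/- and 6.79 in lal+/+ cells). Its difference of 0.22 turned to -0.0047 with the values as deposited and to -0.0014 without lal-/- replicate 2.

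Nearly the whole beta ring rose. 7 of its 8 genes rose at an adjusted p under 0.05, with differences from 0.77 to 1.49. This is 87.5%, against 15.3% of all genes and 36.8% of those at a level of 9 or more. Psmb3 and Psmb1 were called at 2-fold, or 25% against 7.43% of all genes and 17.6% of those at a level of 9 or more. Psmb3, a structural subunit, was read by 2 probe sets. The brighter gave 10.98 and 10.90 in lal-/- cells and 9.47 and 9.43 in lal+/+ cells, a difference of 1.49 (standard error 0.117, adjusted p = 0.00354). The dimmer gave 10.37 and 10.21 in lal-/- cells and 7.75 and 7.24 in lal+/+ cells, a difference of 2.79 (standard error 0.208, adjusted p = 0.00341). Both probe sets of Psmb3 were called, and the dimmer gave the largest difference of all 54. Psmb1, also structural, read 10.49 and 10.52 in lal-/- cells and 9.37 and 9.42 in lal+/+ cells, a difference of 1.11 (standard error 0.115, adjusted p = 0.00591). Without lal-/- replicate 1 or 2 Psmb1 kept differences of 1.12 and 1.09 but had adjusted p-values of 0.0502 and 0.0520, in a range of 0.000506 to 0.0520 over all alternatives.

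The other subunits of the ring rose by less than 2-fold. Psmb6 read 10.96 and 10.80 in lal-/- cells and 9.92 and 9.99 in lal+/+ cells, a difference of 0.92 (adjusted p = 0.0108). Psmb6 carries the caspase-like cutting site. Psmb5, which carries the chymotrypsin-like site, and Psmb7, which carries the trypsin-like site, rose by 0.82 and 0.77. The structural subunits Psmb4 and Psmb2 rose by 0.90 and 0.83. In each of these 5 genes both lal-/- arrays lay above both lal+/+ arrays. Psmb11, the form of the thymic cortex, read 5.30 and 5.38 in lal-/- cells and 5.50 and 5.66 in lal+/+ cells, within the range of the silent genes, and its difference of -0.24 did not pass (adjusted p = 0.253). Over both rings, 2 of 16 genes were called at 2-fold and 12 rose at any fold. With a common median 12 core genes were called at 2-fold (13.1% of all genes), and with the values as deposited 10 were (10.1% of all genes).

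While the constitutive catalytic subunits rose, their interferon-inducible counterparts did not pass the test after quantile normalization. Psmb8, which replaces Psmb5, read 9.51 and 9.51 in lal-/- cells and 9.81 and 9.95 in lal+/+ cells, a difference of -0.37 (adjusted p = 0.0983) that turned to 0.28 with a common median and to 0.10 as deposited. Psmb9, which replaces Psmb6, read 11.21 and 11.18 in lal-/- cells and 11.14 and 10.90 in lal+/+ cells, a difference of 0.18 (adjusted p = 0.413). Its difference was 0.72 with a common median (adjusted p = 0.0364) and 0.54 as deposited (adjusted p = 0.0726). Psmb10, which replaces Psmb7, read 7.41 and 7.39 in lal-/- cells and 7.78 and 7.53 in lal+/+ cells, a difference of -0.25 (adjusted p = 0.269) that turned to 0.04 with a common median. None of the 3 was called at 2-fold under any scaling, but Psmb9 rose by less than 2-fold with a common median. For each couple the constitutive minus the inducible level was taken on every array, which removes a shift common to an array. This quantity was higher in lal-/- than in lal+/+ cells by 1.19 for Psmb5 and Psmb8, by 0.74 for Psmb6 and Psmb9, and by 1.02 for Psmb7 and Psmb10. With the values as deposited it was higher by 1.18, 0.84 and 1.38. In all 3 couples both lal-/- arrays lay above both lal+/+ arrays. The exact two-sided permutation p was 0.333 in each, the smallest that 2 arrays against 2 can give, so these differences cannot pass a test of this kind.

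**Figure D3:**
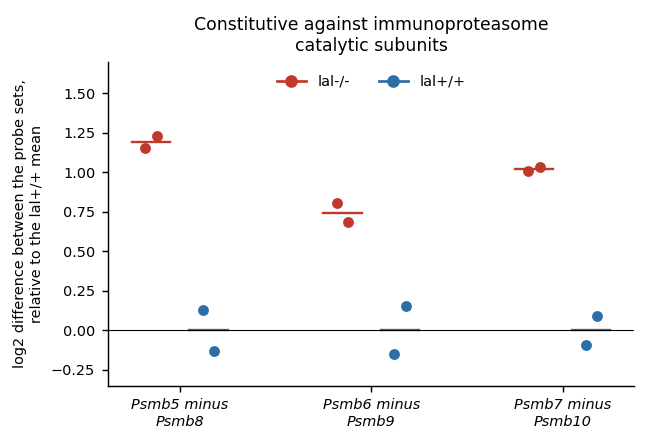
Log2 difference between the probe sets of a constitutive catalytic subunit and of the inducible subunit that can replace it, on each of the 2 lal-/- and 2 lal+/+ arrays, relative to the lal+/+ mean of that couple (vertical axis, horizontal lines are means). The lal-/- points lie above the lal+/+ points in all 3 couples.

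The base of the cap, with its ATPase ring and scaffold, moved in the same direction with smaller differences. All 9 genes were positive with both lal-/- arrays above both lal+/+ arrays, as in 41.6% of all genes and 58.9% of those at a level of 9 or more. The median was 0.49, and 5 rose at an adjusted p under 0.05. This is 55.6%, against 15.3% of all genes and 36.8% of those at a level of 9 or more. At 2-fold 1 was called, or 11.1%, near the 7.43% of all genes. That gene was Psmd4, the receptor that binds ubiquitin chains. Psmd4 read 10.07 and 9.97 in lal-/- cells and 8.97 and 8.74 in lal+/+ cells, a difference of 1.17 (standard error 0.141, adjusted p = 0.00813). Without lal-/- replicate 1 or 2 its differences were 1.10 and 1.20 with adjusted p-values of 0.0615 and 0.0531, in a range of 0.000693 to 0.0934 over all alternatives. With a common median 5 base genes were called (13.1% of all genes) and with the values as deposited 4 were (10.1% of all genes).

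Among the 6 ATPases, Psmc6 and Psmc4 had the largest differences. Psmc6 read 9.66 and 9.71 in lal-/- cells and 8.91 and 8.72 in lal+/+ cells, a difference of 0.87 (adjusted p = 0.0133). Psmc4 read 9.22 and 8.95 in lal-/- cells and 8.48 and 8.28 in lal+/+ cells, a difference of 0.71 (adjusted p = 0.0382). Psmc2 rose by 0.52 and Psmc1 by 0.49. Psmc1 was read by 2 probe sets that both passed the test. The brighter gave 10.40 and 10.45 in lal-/- cells and 9.97 and 9.92 in lal+/+ cells. The dimmer gave 10.29 and 10.35 in lal-/- cells and 9.73 and 9.56 in lal+/+ cells, a difference of 0.67. Psmc3, at 0.31, and Psmc5 did not pass. Psmc5 read 10.56 and 10.70 in lal-/- cells and 10.52 and 10.31 in lal+/+ cells, the smallest difference of the ring at 0.22 (adjusted p = 0.326).

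The scaffold subunits Psmd2 and Psmd1 did not pass at the probe sets that stand for them. Psmd2 was read by 2 probe sets. The brighter gave 9.21 and 9.24 in lal-/- cells and 8.88 and 8.79 in lal+/+ cells, a difference of 0.39 (adjusted p = 0.0830). The dimmer gave 8.88 and 8.87 in lal-/- cells and 8.13 and 8.23 in lal+/+ cells, a difference of 0.69 (adjusted p = 0.0186). The direction was shared and the side of the threshold was not. Psmd1 differed by 0.28 (adjusted p = 0.187).

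Of the 8 lid genes 2 were called at 2-fold, or 25% against 7.43% of all genes and 13.9% of those at or above the median level. Psmd13, a structural lid subunit, read 9.45 and 9.64 in lal-/- cells and 7.96 and 7.52 in lal+/+ cells, a difference of 1.81 (standard error 0.193, adjusted p = 0.00627), which is 3.50-fold. Psmd8, another structural subunit, read 9.73 and 9.68 in lal-/- cells and 8.50 and 8.32 in lal+/+ cells, a difference of 1.29 (standard error 0.128, adjusted p = 0.00546). Both stayed called whichever array was left out. Psmd7, the partner of the deubiquitinase Psmd14, read 9.11 and 9.29 in lal-/- cells and 8.66 and 8.46 in lal+/+ cells and rose by 0.64, and Psmd6 rose by 0.63. The other 4 genes did not pass, with differences of 0.44 for Psmd3 (its lal+/+ mean lying within the range of the silent genes), 0.29 for Psmd12, 0.24 for Psmd14, which cuts ubiquitin chains off the substrate, and 0.20 for Psmd11. Psmd11 read 8.70 and 8.82 in lal-/- cells and 8.68 and 8.44 in lal+/+ cells, so the arrays were set apart by a narrow gap. All 8 lid genes were positive, 4 rose at any fold, or 50% against 15.3% of all genes, and the median was 0.53. With a common median and as deposited 4 lid genes were called, against 13.1% and 10.1% of all genes.

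Of the 8 assembly factors 4 were called at 2-fold, with a median of 0.89. This is 50%, against 7.43% of all genes and 13.9% of those at or above the median level. At any fold 5 rose, or 62.5% against 15.3%. Psmd10, Psmd5 and Psmd9 are chaperones that hold the ATPases while the base is put together, and all 3 were called. Psmd10 (gankyrin) read 11.40 and 11.36 in lal-/- cells and 10.07 and 9.88 in lal+/+ cells, a difference of 1.40 (standard error 0.129, adjusted p = 0.00464). Psmd5 read 8.46 and 8.27 in lal-/- cells and 7.11 and 6.82 in lal+/+ cells, also a difference of 1.40 (standard error 0.160, adjusted p = 0.00719). Psmd9 read 8.23 and 8.08 in lal-/- cells and 7.11 and 6.76 in lal+/+ cells, a difference of 1.22 (standard error 0.168, adjusted p = 0.0112). Without lal-/- replicate 1 Psmd5 had a difference of 1.25 with an adjusted p of 0.0539, in a range of 0.000448 to 0.102. Without lal-/- replicate 1 or 2 Psmd9 had differences of 1.09 and 1.23 with adjusted p-values of 0.0739 and 0.0609, in a range of 0.000999 to 0.122. Psmd10 stayed called whichever array was left out.

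The factors that guide assembly of the core were less alike. Psmg3 was called with a difference of 1.003 (standard error 0.141, adjusted p = 0.0116), the smallest of the called genes, and read 7.37 and 7.62 in lal-/- cells and 6.49 and 6.49 in lal+/+ cells. Its lal+/+ mean lay within the range of the silent genes. The call was lost as deposited, at 0.98, and without lal-/- replicate 1 or 2, at 1.09 and 0.84 with adjusted p-values of 0.0513 and 0.0802 in a range of 0.00138 to 0.104. Psmg1 rose by 0.78. Pomp, which completes maturation of the core, differed by 0.49 (adjusted p = 0.0900), and Psmg4 by 0.29 (adjusted p = 0.293). Psmg2, which acts as a dimer with the product of Psmg1, read 6.76 and 7.18 in lal-/- cells and 7.40 and 7.30 in lal+/+ cells, a difference of -0.38 that did not pass (adjusted p = 0.209). With a common median 6 assembly factors were called (13.1% of all genes) and with the values as deposited 4 were (10.1% of all genes).

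**Figure D4:**
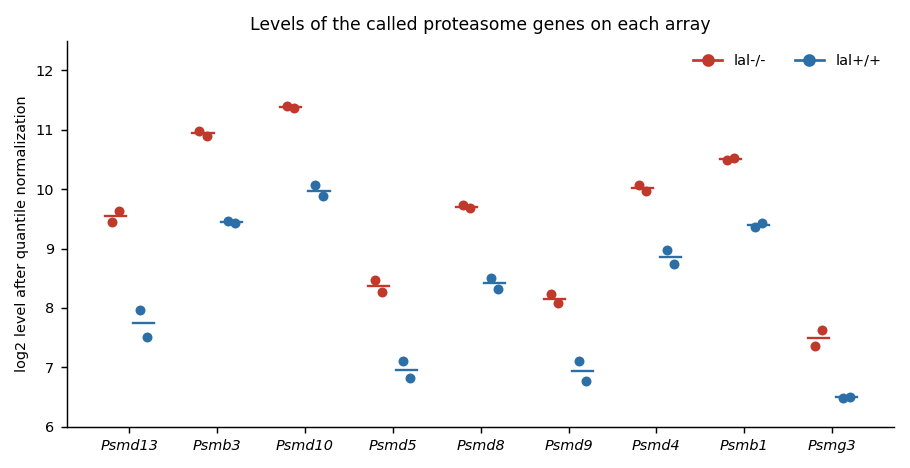
Log2 level after quantile normalization (vertical axis) of the 9 called genes on each of the 2 lal-/- and 2 lal+/+ arrays, with horizontal lines at the mean of a genotype. In each gene both lal-/- points lie above both lal+/+ points. The gap is widest in Psmd13 and narrowest in Psmg3.

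Of the 5 genes of the alternative caps and the inhibitor of the core, 0 were called at 2-fold, 1 rose at any fold, a share of 20% against 15.3% of all genes, and the median difference was 0.21. Psmf1, which encodes the inhibitor PI31, read 7.10 and 7.12 in lal-/- cells and 6.54 and 6.36 in lal+/+ cells and rose by 0.66 (adjusted p = 0.0260), its lal+/+ mean lying within the range of the silent genes. Psme1 and Psme2 encode the partner subunits of the interferon-inducible PA28 cap and lie close to each other on the chromosome. Psme2 read 9.68 and 9.86 in lal-/- cells and 9.26 and 8.88 in lal+/+ cells, a difference of 0.71 (standard error 0.177, adjusted p = 0.0523). Psme1 read 10.72 and 10.73 in lal-/- cells and 10.71 and 10.67 in lal+/+ cells, a difference of 0.03 (standard error 0.114, adjusted p = 0.870). Whether the 2 differences differ from each other was not tested. Psme3, the nuclear PA28 subunit, read 8.87 and 8.71 in lal-/- cells and 8.77 and 8.38 in lal+/+ cells, with overlapping arrays and a difference of 0.21. Psme4, which encodes the PA200 cap, differed by 0.18. With a common median or as deposited 1 of the 5 was called, Psme2. The 2 genes that the rule took by name alone were Psmc3ip, a factor of meiotic recombination that rose by 0.94 (adjusted p = 0.0238) with its lal+/+ mean in the range of the silent genes, and Psme3ip1, which differed by 0.10 and overlapped between genotypes.

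Of 29 genes that control the proteasome, bind it or bring its substrates 2 were called higher, or 6.9%, near the 7.43% of all genes. Of 9 measured regulators of proteasome gene expression 1 was called, and the median difference was 0.21. Nfe2l1, which encodes the factor that raises proteasome genes when proteasomes fail, differed by 0.48 (adjusted p = 0.0548), Nfe2l2 by 0.27, Nfe2l3 by -0.38, and Ngly1, whose enzyme is needed to activate the Nfe2l1 product, by 0.18. The called gene was Keap1, which marks the Nfe2l2 product for degradation and rose by 1.18. Its lal+/+ mean lay within the range of the silent genes, and the call was lost without lal-/- replicate 1, at 1.09. Ddi2, whose protease cuts the Nfe2l1 product, was not analysed here. Of 9 measured proteins that bind the proteasome 0 were called. Sem1, the smallest lid subunit, rose by 0.76 without reaching 2-fold (adjusted p = 0.0140), and the deubiquitinases Usp14 and Uchl5 differed by -0.60 (adjusted p = 0.0829) and 0.09. Of 11 shuttles and unfolding cofactors that bring substrates 1 was called, Ufd1, with a difference of 1.05 that kept its call without lal+/+ replicate 1 and lost it without each of the 3 other arrays, at 0.97 to 1.12.

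The COP9 signalosome is a complex with subunits related to those of the lid, and it removes NEDD8 from cullin ubiquitin ligases. Of its 10 genes 4 were called higher, or 40% against 7.43% of all genes, and 7 rose at any fold, or 70% against 15.3%. The median difference was 0.81. Cops4 read 8.42 and 8.78 in lal-/- cells and 7.46 and 6.75 in lal+/+ cells, a difference of 1.50 (adjusted p = 0.0244). Cops5, the catalytic subunit, read 10.08 and 10.20 in lal-/- cells and 8.97 and 8.72 in lal+/+ cells, a difference of 1.29 (adjusted p = 0.00686). Cops6 read 10.45 and 10.44 in lal-/- cells and 9.55 and 9.24 in lal+/+ cells, a difference of 1.05 (adjusted p = 0.0123). Fewer COP9 genes were called without lal-/- replicate 1, lal-/- replicate 2 or lal+/+ replicate 2, and fewer of all genes were too. With each array left out in turn the differences were 1.20 to 1.90 for Cops4, 1.18 to 1.44 for Cops5 and 0.90 to 1.21 for Cops6.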

How the data were processed

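The authors deposited RMA log2 values from Partek Genomics Suite for 35557 probe sets. The labels name GCOS 1.1. Deposited medians were 6.15 and 6.15 (lal-/-) and 6.30 and 6.36 (lal+/+). Because these differ by over 0.1, quantile normalization was applied to the 4 columns. Genotype was fitted with limma 3.58.1 in R 4.3.3 over all probe sets (prior degrees of freedom 2.71, residual 2), with Benjamini-Hochberg adjustment among the 21789 that name 1 gene. The methods' tissue term cannot be fitted to 1 tissue. The table of probe genes lists 23410 probe sets, 1621 of them with several genes. 21698 symbols were matched to RefSeq and 91 kept. Of several probe sets of a gene the brightest was used. The number of arrays limits precision.

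Across probe sets, Pearson's r was 0.987 between lal-/- arrays, 0.984 between lal+/+ arrays and 0.922 to 0.932 between genotypes. The members, the lists and the tests were chosen with earlier results of these data known, and the study chose a list of proteasome subunits on these arrays, so no count is independent evidence. By rule, every member was named, with values per array for the 3 highest and the lowest of each structural group and for genes with several probe sets, and up to 3 called genes of each other list. Alternatives were other scalings, a filter at the median level, other variance models and thresholds, a replicate block, other choices of probe set and each array left out. The procedure was also run on simulated data in which few genes changed, all by over 2-fold. That setting differs from these arrays, so no conclusion about the calls is drawn from it.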

Additional observations from a re-analysis of the deposited data

Results flagged for a closer look

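A probe set that names both Psme2b and Psme2 was left out of the comparisons because it names several genes. It read 9.52 and 9.80 in lal-/- cells and 9.49 and 9.50 in lal+/+ cells, a difference of 0.17 on the log2 scale that was smaller than the gap between the lal-/- arrays. It was singled out because it reads a gene of the set outside the main measurement and both its lal-/- arrays lay above both lal+/+ arrays. That separation was thus a condition of the choice.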

How the results depend on the processing

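The 9 calls were the same genes with probe sets below the median level left out, with the adjustment over all probe sets, an intensity trend with robust variances, the mean or the dimmer of the probe sets of a gene, and variances moderated over probe sets that name 1 gene only. With an adjusted p under 0.01, 7 remained, and assembly factors numbered 2. The replicate numbers in the labels gave both genotypes the same numbers, but samples with the same number did not deviate together (correlation -0.175). With the replicate block the count of calls in the set was 9, with a median difference of 0.65, and a crossed pairing, added after seeing the data, also gave 9. The block ended the call of Cops4 alone among the genes named here. An ordinary linear model without moderation called 0 of the 48 genes, with 27 higher at an unadjusted p under 0.05, and 0 of all 19938 genes. In it core, base, lid and assembly counts were 0.

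With a common median, 29 genes were called (core 12, base 5, lid 4, assembly 6, regulators 1), against 13.1% of all genes, and the median was 1.16. As deposited, 23 were called (core 10, base 4, lid 4, assembly 4, regulators 1), against 10.1% of all genes, and the median was 0.98. Calls of all genes were higher in lal-/- cells in 70.3% after quantile normalization, 85.1% with a common median and 76.3% as deposited. With no fold threshold the counts were 28 in all, 12, 5, 4, 5 and 1. Leaving out each array in turn gave 4 to 10 genes called higher and 0 to 0 lower, 1 to 3 of the core, 0 to 1 of the base, 2 to 2 of the lid, 1 to 4 assembly factors, 0 to 0 regulators, and a median of 0.54 to 0.76. Without lal-/- replicate 1 the count was 4 (4.12% of all genes higher), and without lal-/- replicate 2 it was 5 (4.04%). The direction turned for Psmb8 (0.28 with a common median, 0.10 as deposited), Psmb10 (0.035 with a common median), Psma8 (-0.0047 as deposited, and -0.0014 to 0.44 with each array left out in turn, negative without lal-/- replicate 2) and Psme3ip1 (-0.038 to 0.24 with each array left out, negative without lal-/- or lal+/+ replicate 1), none of them called. The cause was not tested. The deposited values give no signal over background, so the level of silent genes stands in for it.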

Other observations

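Conjugating enzymes (E2), which pass ubiquitin to the substrates that the proteasome degrades, were described as a further list. Of 30 measured E2 genes 4 were called higher in lal-/- cells, or 13.3% against 7.43% of all genes, and 0 lower, against 3.13%. At any fold 11 rose, or 36.7% against 15.3%, and 3 fell, against 6.81% of all genes. The median difference was 0.31. Ube2g2, which serves degradation at the endoplasmic reticulum, read 8.36 and 8.43 in lal-/- cells and 6.56 and 6.57 in lal+/+ cells, a difference of 1.83 (adjusted p = 0.00289), its lal+/+ mean lying within the range of silent genes, as did that of Ube2c. Ube2s and Ube2c, the E2 enzymes of the anaphase-promoting complex, rose by 1.41 and 1.26 in a comparison where 13 of 14 mitosis genes were also called higher. The part of dividing cells in these values was not tested. Both lost their call without lal-/- replicate 1, at 1.35 and 1.10, and Ube2s also lost it without lal-/- replicate 2, at 1.35. Fewer E2 genes were called higher without lal-/- replicate 1 or 2, and more without lal+/+ replicate 1. The same held for all genes. With a common median 10 of the 30 were called higher, against 13.1% of all genes, and as deposited 9 were, against 10.1%.

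Of the genes for ubiquitin itself and its activating enzymes, 1 of 6 was analysed here, Uba6, which differed by -0.04 (adjusted p = 0.929).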
